A study of Mus musculus with 6 samples.

Results

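The nuclear-encoded subunits of the mitochondrial respiratory chain were examined in mouse bone marrow that lacks the miR-181a2b2 locus. Members were taken by name: protein-coding genes whose symbol begins with Ndufa, Ndufb, Ndufc, Ndufs, Ndufv, Uqcr, Cox4 to Cox8 or Atp5, together with Sdha, Sdhb, Sdhc and Sdhd. This gave 93 of the 49315 genes in the count table, namely 38 subunits of complex I, 8 complex I assembly factors that share the Ndufa prefix (Ndufaf1 to Ndufaf8), 4 subunits of complex II, 8 of complex III, 18 of complex IV, 16 of complex V, and Atp5s, a factor that couples parts of the ATP synthase. Of these, 89 passed the filter on low counts and were tested among 16956 genes.

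The libraries were poly(A)-selected RNA of bone marrow from mice kept on the HFSC diet, spelled as the labels give it, and subjected to hindlimb ischemia, a surgical reduction of blood flow to a leg. The KO group held 3 libraries of genotype miR-181a2b2-/- (replicates 2, 3 and 4), and the WT group held 3 libraries of genotype miR-181a2b2flox/flox, in which the locus is floxed and not deleted (replicates 1, 3 and 4). Diet and ischemia were shared by both groups, so no library shows either genotype without them. The labels do not state age, sex or the way the deletion was made. Whether libraries within a genotype represent different animals is not stated, and p-values therefore measure the spread between these samples, which may be technical. Levels of Xist, the RNA of the inactive X chromosome, differed between libraries of each genotype, as given with complex I.

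The respiratory chain passes electrons from NADH (complex I) and succinate (complex II) through ubiquinone, complex III and cytochrome c to oxygen at complex IV. The protons pumped on the way drive complex V, the ATP synthase. Most subunits are encoded in the nucleus, and a small set of core subunits of complexes I, III, IV and V is encoded by mitochondrial DNA. In marrow, differentiating neutrophils lose much of their mitochondrial mass, whereas erythroid precursors use mitochondria for heme synthesis and discard them at the end of maturation.

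The microRNAs made from the deleted locus are shown because they recognise transcripts through a short stretch at their 5' end. Both share the same seed, bases 2 to 8, which is given in capitals (RefSeq, GRCm38.p6). The mature RNAs lie at chr2:38852741-38852763 and chr2:38853845-38853868, both on the plus strand. Levels of these mature RNAs were not examined here, so how much of them remains in KO marrow is not known.
mmu-miR-181a-5p: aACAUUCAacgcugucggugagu
mmu-miR-181b-5p: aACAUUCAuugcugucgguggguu

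A match to this seed was rare among the members. Only 3 of the 93 members (3.23%) had a match of 7 or 8 bases in the annotated 3' UTR of the principal transcript, against 2889 of the 13571 coding genes tested (21.3%). Their 3' UTRs were short, with a median of 175 bases against 988 bases over all coding genes tested, and per kilobase of 3' UTR the members held 0.1 sites against 0.196. The 3 stretches below were read from the GENCODE M21 transcripts (GRCm38) in the direction of the mRNA, and capitals mark the match. They lie at chr13:74322343-74322350 (minus strand), chr9:44913326-44913332 (minus strand) and chr1:36693330-36693336 (plus strand). The Cox5b match pairs with bases 2 to 7 of the microRNA only, and its last A lies opposite base 1. The last A of the Sdha match also lies opposite base 1, outside the seed.
Sdha: cttctcactgTGAATGTAactagtttct
Atp5l: agttcttattTGAATGTtcttggaccat
Cox5b: ttatcttttcaGAATGTAaagaaaaact
Sdha, the flavoprotein subunit of complex II, carried the only 8-base match and its log2 fold change, KO minus WT, was -0.01. Atp5l, a membrane subunit of the ATP synthase, had 0.41, and Cox5b, a complex IV subunit with 2 matches, had 0.29. None of the 3 passed an adjusted p of 0.05 in edgeR's quasi-likelihood test.

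The members as a group were slightly higher in KO marrow, and few of them passed the test alone. In edgeR's quasi-likelihood test across all genes, 2 members rose at an adjusted p below 0.05 (2.25% of those tested, against a background of 0.938 percent of all genes tested called higher), and 0 fell (background 1.52 percent). At an unadjusted p below 0.05, 58 members were higher (65.2%, background 11.7 percent) and 0 were lower (background 12.2 percent). The same backgrounds apply to the counts at an unadjusted p below 0.05 given for each complex below. By other tools, DESeq2 called 28 members higher (background 6.59 percent) and limma with sample quality weights called 17 (background 2.92 percent), and each called 0 lower. The 3 KO libraries all lay above the 3 WT libraries for 56 members (62.9%, background 14.4 percent), and for 0 members did they all lie below (background 14.7 percent). The fold change was positive for 87 of 89 members (97.8%, background 48.9 percent). Short genes were more often positive in general, with 82.8% of all coding genes tested under 100 codons and 74.8% of those between 100 and under 200 codons, classes that hold 23 and 41 of the members. The median fold change of the members was 0.29 on the log2 scale, or 1.22-fold, beside -0.01 over all genes tested. It was 0.11 once a trend on transcript length and GC content was removed from each library, as described with the lengths of the members, and neither call held there. On the TPM scale the median log2 ratio of the group means was 0.11, with 75 members higher and 14 lower in KO. That scale multiplies all genes of a library by a common factor. No median over all genes was computed on it, so this value has no background and is not a length-corrected estimate. The difference was thus small and in the same direction for most members, while few members passed the edgeR threshold alone. Exons of 31 of the 89 overlap another gene, and the median over the other 58 was 0.31. The members are measured in the same 6 libraries and are not independent of each other.

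**Figure D1:**
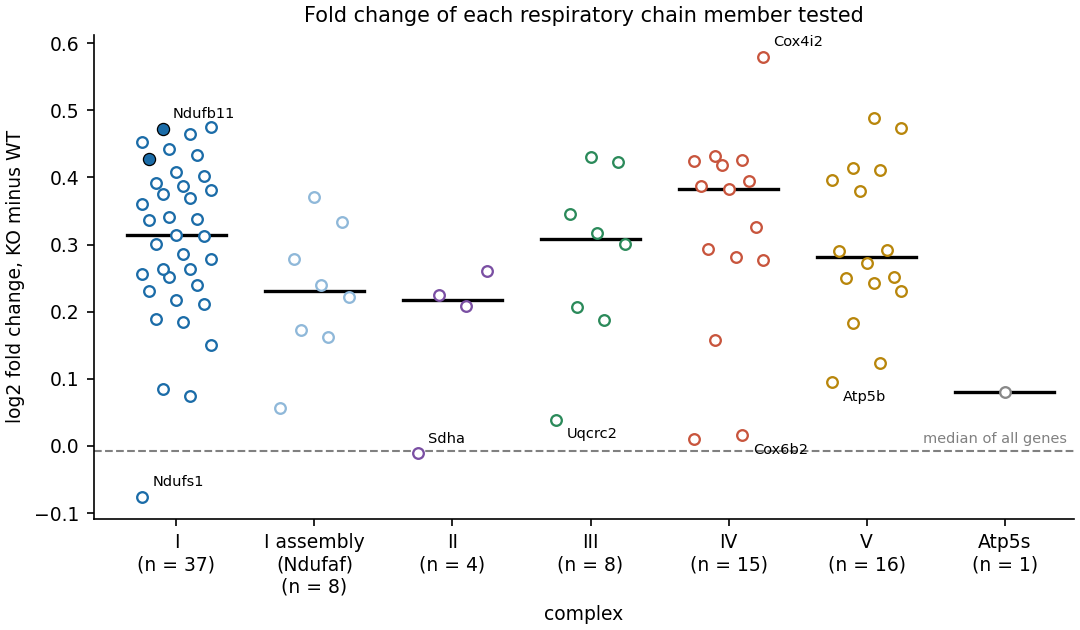
Log2 fold change (KO minus WT) of each of the 89 members tested, by complex; filled points passed an adjusted p of 0.05, black bars are medians, and the dashed line is the median of all genes (-0.01). Every complex has its median above that line, at 0.22 for complex II and 0.38 for complex IV, Atp5s alone lies at 0.08, and Ndufs1 and Sdha are the points below 0.

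The members' levels also differed between libraries of the same group. The summed level of the 93 members was 7338, 7198 and 8684 CPM in the KO libraries (replicates 2, 3 and 4), against 6997, 6204 and 6311 CPM in the WT libraries (replicates 1, 3 and 4). CPM are counts scaled to a common library total after TMM scaling. KO replicate 4 stood highest and WT replicate 1 came close to the other KO libraries, although the groups did not overlap on this scale. As a share of counts, without TMM scaling, WT replicate 1 (0.712%) lay above KO replicate 3 (0.708%), so there the groups overlapped. The sums averaged 7740 ± 821 CPM in KO and 6504 ± 430 CPM in WT (SD, n = 3 each). KO replicate 4 held the highest of the 6 values in 81 of the 89 members, and the lowest lay in WT replicate 3 for 44 members and in WT replicate 4 for 39. Without KO replicate 4 the median log2 fold change of members was 0.21, 85 of 89 were positive, 33 had an unadjusted p below 0.05 with higher values in KO, and 0 were called by edgeR (background 0.0523 percent). The median over all genes was 0.0004 in that fit, and shares of all genes by sign or by unadjusted p were not computed for it. The median deviation of members from their mean over the 6 libraries was 0.09, 0.03 and 0.35 in the KO libraries and -0.02, -0.20 and -0.19 in the WT libraries (log2).

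**Figure D2:**
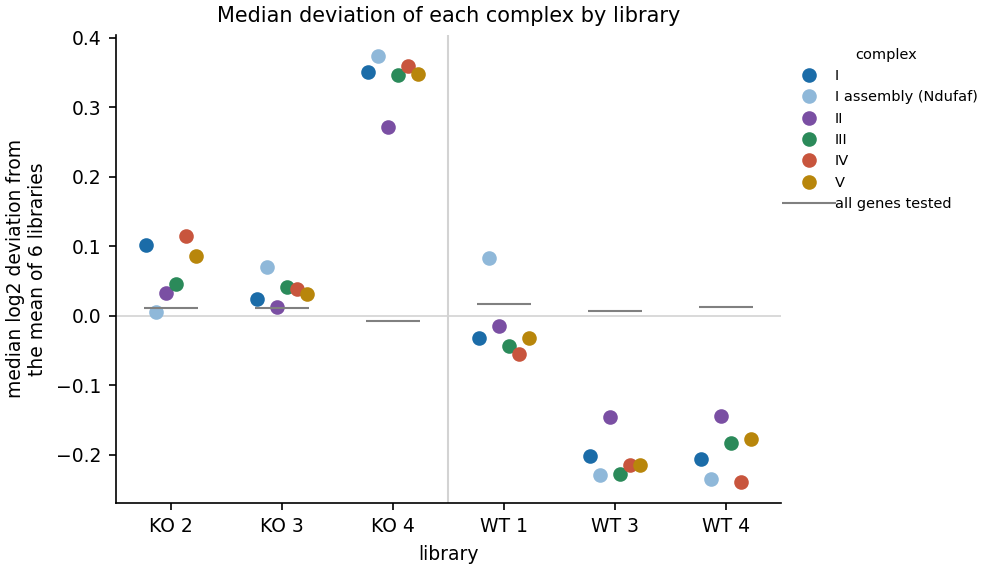
Median log2 deviation of each complex from its mean over the 6 libraries, by library, with grey bars for all genes tested. All complexes move together within a library: KO 4 lies at 0.35 over all members, KO 2 and KO 3 at 0.09 and 0.03, and WT 3 and WT 4 at -0.20 and -0.19.

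Complex I, which oxidizes NADH, held both members that rose, and both are X-linked accessory subunits of its membrane arm. Ndufb11 had 104, 95.7 and 116 CPM in KO marrow, against 80.5, 71.0 and 76.5 CPM in WT marrow. All KO values were above all WT values, and the log2 fold change was 0.47 ± 0.097 (SE; 1.39-fold, edgeR adjusted p = 0.0438). Ndufa1 had 35.2, 34.7 and 39.9 CPM in KO marrow, against 28.8, 26.6 and 26.2 CPM in WT marrow. Again the groups did not overlap, and the log2 fold change was 0.43 ± 0.094 (1.34-fold, edgeR adjusted p = 0.0491). Exons of Ndufb11 overlap Rbm10 on the opposite strand, and as no source used here states the strand setting of the counting, reads of such a pair cannot be told apart. Both calls were lost when KO replicate 4, WT replicate 1, WT replicate 3 or WT replicate 4 was left out, with adjusted p between 0.0902 and 0.185. The log2 fold changes in these 4 fits stayed between 0.40 and 0.52 for Ndufb11 and between 0.37 and 0.47 for Ndufa1, and of all genes only 0.0346 to 0.327 percent were called higher. The calls were also lost when KO replicate 2 was left out, at adjusted p = 0.0535 for Ndufa1 and 0.0519 for Ndufb11. Xist exceeded 1 CPM, here without TMM scaling, in KO replicate 2 (6.64) and in WT replicates 3 and 4 (3.5 and 5.05). It lay at 0.22 and 0.0758 CPM in KO replicates 3 and 4 and at 0.147 CPM in WT replicate 1. Libraries of each genotype thus differed in Xist. With Xist above 1 CPM as a covariate the log2 fold change was 0.45 for Ndufb11 (edgeR adjusted p = 0.0745) and 0.39 for Ndufa1 (0.0787). In that fit 0.448 percent of all genes were called higher. The third X-linked member, Cox7b of complex IV, was at 0.40 on the log2 scale (adjusted p = 0.102), so that the median of the X-linked members was 0.43 beside 0.29 for the autosomal ones. The X-linked median rests on 3 genes, 2 of them the called ones. With the trend on transcript length and GC content removed the medians were 0.18 and 0.11, and a difference between them was not tested.

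Other small subunits of complex I lay just outside the threshold. Ndufa3 (adjusted p = 0.0538), Ndufb2 (0.0555), Ndufs4 (0.0563) and Ndufa13 (0.0568) had log2 fold changes of 0.44, 0.47, 0.45 and 0.47 in the edgeR test, which is the range of the 2 called genes. Exons of Ndufa3, Ndufb2 and Ndufa13 overlap Tfpt, Braf and Tssk6 on the opposite strand. Ndufs4 encodes a subunit near the NADH-oxidizing module whose loss causes Leigh syndrome in people. It had 40.9, 40.3 and 50.7 CPM in KO marrow, against 32.9, 32.5 and 31.0 CPM in WT marrow. The groups did not overlap, with KO replicate 4 the highest. Over the 30 accessory subunits tested the log2 fold changes ran between 0.08 for Ndufa10 and 0.47 for Ndufb2, with a median of 0.35, and 23 had an unadjusted p below 0.05.

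The 7 core subunits, which carry the flavin and iron-sulfur clusters that pass the electrons on, had a lower median of 0.22, and 4 had an unadjusted p below 0.05. Ndufs1, the largest subunit and an iron-sulfur protein, had 81.2, 90.8 and 99.1 CPM in KO marrow, against 96.4, 97.2 and 92.1 CPM in WT marrow. The groups overlapped, and the log2 fold change was -0.08 with a 95% interval of -0.28 to 0.13. Exons of Ndufs1 overlap Eef1b2, an abundant gene on the opposite strand. Ndufv1, which binds NADH and flavin, had 80.4, 71.9 and 83.4 CPM in KO marrow, against 79.2, 68.6 and 76.3 CPM in WT marrow, which also overlapped. Ndufv2, its partner in the same module, had 83.6, 78.9 and 106 CPM in KO marrow, against 78.9, 68.6 and 64.3 CPM in WT marrow (log2 fold change 0.34, edgeR adjusted p = 0.142). Ndufs3, Ndufs7 and Ndufs8, which belong to the module that leads electrons to ubiquinone, had log2 fold changes of 0.15, 0.28 and 0.34. None of the core subunits passed the adjusted threshold, and whether core and accessory subunits differ was not tested.

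The complex I assembly factors are not part of the finished enzyme. All 8 had positive log2 fold changes, with a median of 0.23, 2 had an unadjusted p below 0.05, and 0 were called. Ndufaf8 (0.37) and Ndufaf3 (0.33) were at the top and Ndufaf1 (0.06) at the bottom. Their levels were far below those of the subunits, with a median of 13.3 TPM beside 75.1 TPM for complex I subunits, where TPM are counts per kilobase of exon scaled to a common total and serve to compare levels between genes. Exons of Ndufaf3 overlap Impdh2 on the opposite strand (28394 counts against 3378 for Ndufaf3).

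Complex II, which is also the succinate dehydrogenase of the citric acid cycle, had its large subunit near 0 and its others above it. Sdha had 188, 215 and 212 CPM in KO marrow, against 215, 204 and 201 CPM in WT marrow. The groups overlapped, and the log2 fold change was -0.01 with a 95% interval of -0.22 to 0.19. Sdhb, the iron-sulfur subunit, had 77.1, 75.3 and 94.0 CPM in KO marrow, against 71.2, 68.0 and 66.5 CPM in WT marrow. For Sdhb (log2 fold change 0.26) and for the membrane anchors Sdhc (0.21) and Sdhd (0.23), all KO values were above all WT values. Their adjusted p in edgeR lay at 0.154, 0.203 and 0.206.

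Complex III, which passes electrons from ubiquinol to cytochrome c, had a median of 0.31. Uqcr10, a small subunit, had 46.5, 42.7 and 57.2 CPM in KO marrow, against 39.2, 35.4 and 34.6 CPM in WT marrow. The groups did not overlap (log2 fold change 0.42, edgeR adjusted p = 0.0809). The log2 fold change of Uqcrb, known as the ubiquinone-binding protein, was 0.43 (adjusted p = 0.0915), and that of Uqcrh, the hinge protein, was 0.32 (0.139). Uqcrc2, a large core protein, had 101, 112 and 118 CPM in KO marrow, against 115, 105 and 102 CPM in WT marrow. These overlapped, with a log2 fold change of 0.04 and a 95% interval of -0.17 to 0.25. Its partner Uqcrc1 had 0.19 and the Rieske iron-sulfur protein Uqcrfs1 had 0.21.

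**Figure D3:**
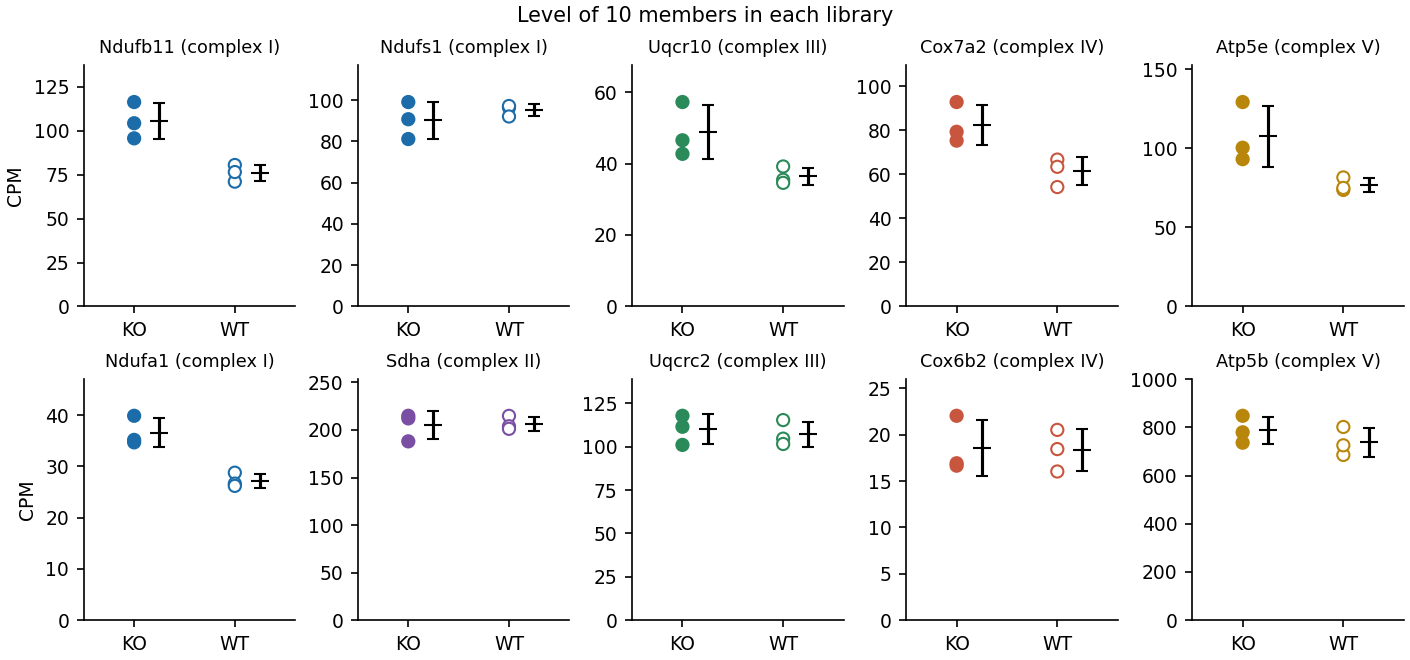
CPM of 10 members in each library, KO (filled) left of WT (open), with mean ± SD beside the points and axes that start at 0. The KO and WT points are apart for Ndufb11, Ndufa1, Uqcr10, Cox7a2 and Atp5e and overlap for Ndufs1, Sdha, Uqcrc2, Cox6b2 and Atp5b.

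Complex IV, cytochrome c oxidase, had a median of 0.38 over 15 members tested, beside 0.31 for complex I, and 10 of the 15 had an unadjusted p below 0.05. The order of these complexes was not stable: with limma the medians were 0.33 for complex IV and 0.34 for complex I. Cox7a2 had 79.3, 75.3 and 92.8 CPM in KO marrow, against 66.7, 63.4 and 54.2 CPM in WT marrow. Cox6c had 106, 101 and 125 CPM in KO marrow, against 90.2, 78.2 and 80.5 CPM in WT marrow. Neither pair of groups overlapped, and the log2 fold changes were 0.43 (edgeR adjusted p = 0.0713) and 0.42 (0.0655). Exons of Cox6c overlap Vps13b on the opposite strand (33649 counts against 21577 for Cox6c). Cox4i1, a regulatory subunit that binds ATP, had 252, 237 and 294 CPM in KO marrow, against 222, 198 and 204 CPM in WT marrow. Its log2 fold change was 0.33 (adjusted p = 0.113), and Cox7a2l, which takes part in joining complexes III and IV, had 0.16 with overlapping groups. Ndufa4, counted here with complex I by its name, is now known as a subunit of complex IV; its log2 fold change was 0.40 (adjusted p = 0.093).

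Several complex IV subunits exist as isoforms with different tissue use, and the marrow libraries held mainly the common ones. Cox4i1 averaged 398.1 TPM over the 6 libraries and Cox4i2, the lung isoform, 0.994 TPM. Cox6a1 averaged 512.9 TPM and Cox6a2, the heart and muscle isoform, 14.2 TPM, between 2.21% and 4.02% of Cox6a1 in each library. Cox7a2 averaged 199.9 TPM beside 2.85 TPM for the muscle isoform Cox7a1, and Cox8a 526.9 TPM beside 0.368 TPM for Cox8b. Cox6b2, known as a testis isoform, stood out among these at 44.2 TPM, between 8.04% and 15.7% of Cox6b1. Cox6b2 had 22.0, 16.7 and 16.9 CPM in KO marrow, against 18.4, 16.0 and 20.5 CPM in WT marrow, which overlapped (log2 fold change 0.02). The testis markers Prm2 and Tnp1 had 0 counts in all libraries and Prm1 at most 0.147 CPM, and 3 counts corresponded to between 0.0743 and 0.0886 CPM, counting error alone. Markers of skeletal muscle, 7 genes, summed to 14.0, 9.22 and 8.78 CPM in KO marrow, against 17.4, 11.4 and 17.4 CPM in WT marrow, and the heart markers Myh6, Nppa and Actc1 lay at or below 0.12 CPM each. The 4 muscle markers tested were all negative. Tnnt3, at most 3.22 CPM in each library, was called lower (log2 fold change -0.99, edgeR adjusted p = 0.0473). Exons of Cox6a2 overlap Itgad, a leukocyte integrin gene on the opposite strand, and the part of that overlap in the Cox6a2 level was not tested.

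**Figure D4:**
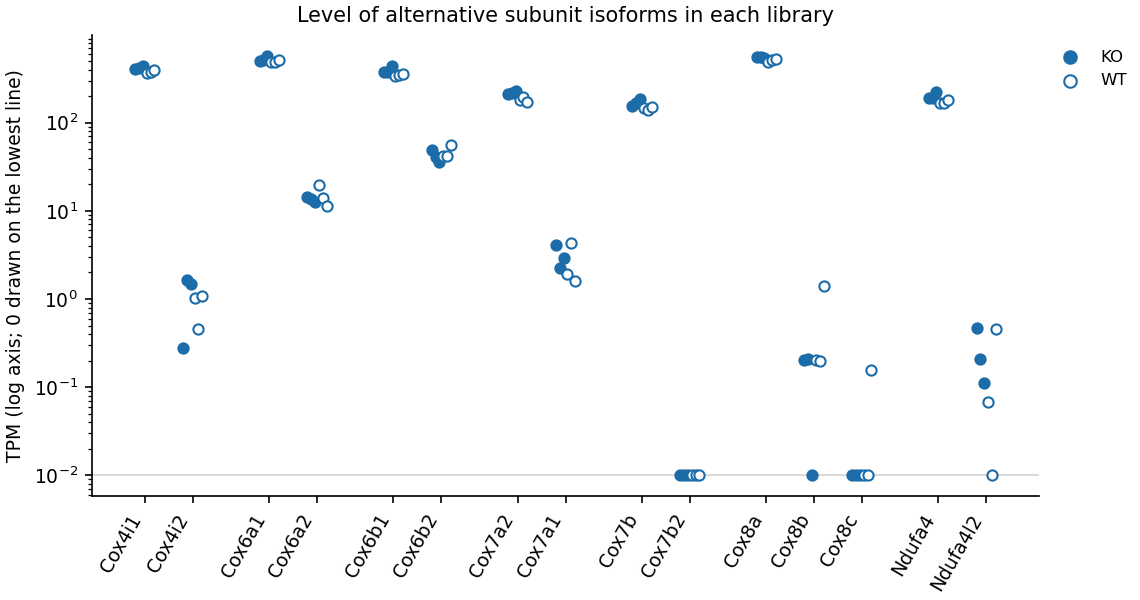
TPM of alternative subunit isoforms in each library on a log axis, KO filled and WT open, with values of 0 drawn on the lowest line. The common isoform of each pair lies between 138 and 574 TPM in every library, Cox6b2 between 35.3 and 55.5 TPM and Cox6a2 between 11.3 and 19.4 TPM, and the other isoforms at or below 4.29 TPM.

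The 4 members that were not tested belong to such isoforms. Cox7b2 had 0 counts in all libraries, and Cox8c, Cox8b and Ndufa4l2 had 1, 11 and 20 counts over the 6 libraries. Exons of Ndufa4l2 overlap Shmt2, which is far more abundant. Cox4i2 and Cox7a1 passed the filter with 67 and 129 counts in total, and their log2 fold changes of 0.58 ± 0.61 and 0.43 ± 0.43 were no larger than their standard errors.

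Complex V had a median of 0.28, with 11 of 16 members at an unadjusted p below 0.05 and 0 called. Atp5e, the smallest member at 52 codons and a subunit of the central stalk, had 100.3, 93.1 and 129 CPM in KO marrow, against 81.6, 73.6 and 74.9 CPM in WT marrow. The groups did not overlap (log2 fold change 0.49, edgeR adjusted p = 0.0671), and Atp5j2, a membrane subunit, had 0.47 (0.0904). The alpha and beta subunits of the catalytic head had the lowest log2 fold changes of the 16 complex V subunits, and this difference was not tested. Atp5b, the catalytic beta subunit, had 736, 779 and 848 CPM in KO marrow, against 801, 685 and 725 CPM in WT marrow. Atp5a1, the alpha subunit, had 587, 626 and 697 CPM in KO marrow, against 633, 544 and 577 CPM in WT marrow. Both overlapped, with log2 fold changes of 0.10 (95% interval -0.15 to 0.34) and 0.12 (-0.12 to 0.37). Both intervals include the complex V median of 0.28. With the trend on transcript length and GC content removed, Atp5b had 0.01 and Atp5a1 0.11, beside a complex V median of 0.12. Atp5g1, Atp5g2 and Atp5g3 encode the same mature subunit c of the rotor ring. Their log2 fold changes were 0.25, 0.18 and 0.25, and 0 of the 3 were called. Atp5s had 0.08.

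Levels of different members spanned a wide range. Of the 89 tested, 44 averaged at least 100 TPM and 6 averaged under 10 TPM. Atp5a1, Atp5b, Atp5h, Cox4i1, Cox6a1 and Cox8a were among the 10 highest both when length was the summed exon length and when it was that of the principal transcript. The level was little related to the fold change across the 89 members (Pearson r = 0.0659, Spearman rho = 0.178).

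Coding length, which the choice of members did not use, was related to the fold change across members. Across the 89 genes the log2 fold change had Pearson r = -0.634 and Spearman rho = -0.621 with coding length, and -0.482 and -0.525 with the length of the principal transcript; genes are not independent replicates. The 23 members under 100 codons had a median log2 fold change of 0.40, the 41 members of 100 to under 200 codons 0.29, the 10 of 200 to under 300 codons 0.27, and the 15 of 300 codons and over 0.12. Ndufs1 (727 codons) and Sdha (664 codons), the longest members, were the ones with negative values. Most of the catalytic and core proteins described above are among the long members.

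The same order appeared over all coding genes tested, which include the members. Their medians in the same classes of length were 0.29 (308 genes), 0.19 (1546), 0.12 (1953) and -0.05 (9977). The members were short, with a median principal transcript of 838 bases against 2937 over all coding genes tested. Each library's smooth trend of counts on principal transcript length and GC content, fitted over all coding genes, was therefore removed as an alternative added after seeing the data. At the members that trend alone differed between KO and WT by a median of 0.20. With it removed, the median of members was 0.11 (all genes -0.01), 76 were positive and 13 negative, 17 were higher at an unadjusted p below 0.05, and 1 was called, Ndufb2, against 131 of 13776 genes called higher (0.951 percent). Shares of all genes by sign or by unadjusted p were not computed in that fit, so those counts of members have no background. Ndufb11 had 0.28 (adjusted p = 0.066) and Ndufa1 0.18 (0.174) in that fit. The annotated principal transcript of Ndufb2 is long for a subunit of 105 codons, at 4371 bases, so its correction is uncertain. Exons of Ndufb2 also overlap Braf on the opposite strand (24962 counts against 5717 for Ndufb2), and the strand setting is not stated. Removing the trend on summed exon length instead left a median of 0.23 and called 3 members, Atp5l, Ndufb2 and Ndufs4 (background 1.03 percent). No measure of RNA quality was used, and its part in the relation with length was not tested.

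**Figure D5:**
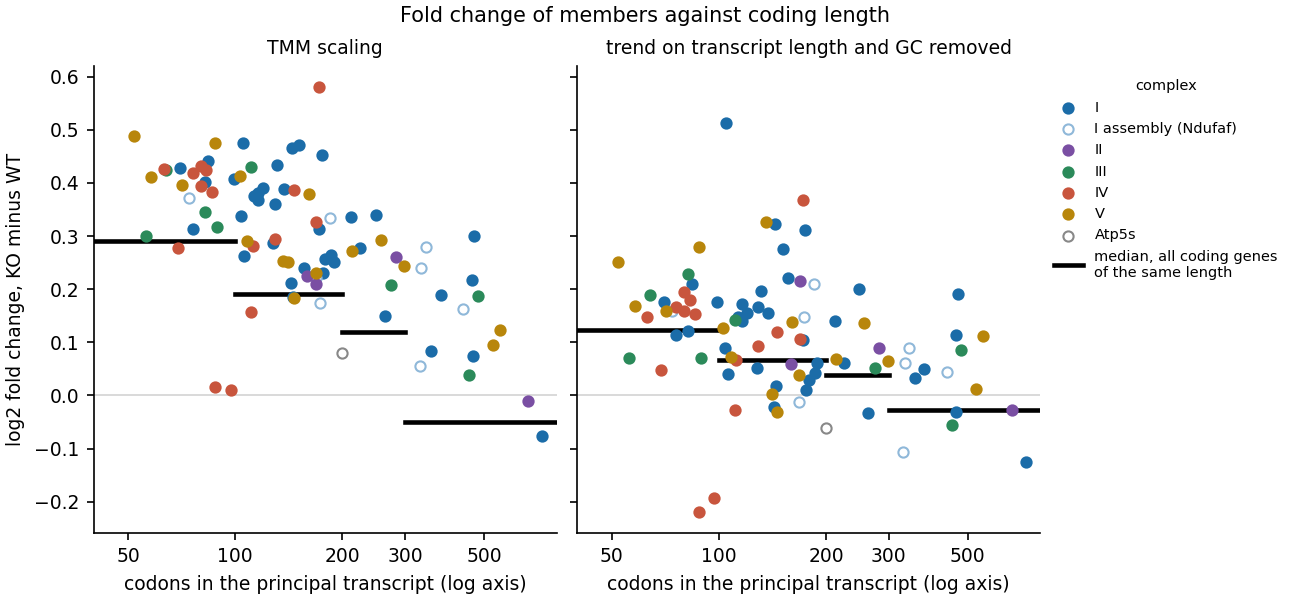
Log2 fold change (KO minus WT) of the 89 members against codons (log axis), with TMM scaling on the left and with the per-library trend on principal transcript length and GC content taken out on the right; black bars are medians of all coding genes of the same length. Members lie mostly above the bars on the left, where both fall with length, and their median is 0.29 on the left and 0.11 on the right.

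Promoters were searched for motifs of factors known to bind many respiratory chain genes, and a set is shown to let the letters be seen beside the fold changes. RefSeq (GRCm38.p6) gave the 250 bases before and 50 after the start for 74 members. The motif of NRF1 (GCGCANGCG) occurred in 29.7% of these promoters, against 6.25% of all promoters, that of ETS factors such as GABP (CCGGAAG) in 24.3% against 8.86%, and that of YY1 (AAGATGGC) in 13.5% against 2.75%. Both strands were searched, and matches of different motifs were allowed to overlap. Among promoters of the genes tested the shares were 13.9%, 18.5% and 4.83%. At least 1 of these motifs occurred in 41 of the 74 members (55.4%), against 16.0% of all promoters and 32.1% of promoters of the genes tested. The letters GGGCGG of SP1 occurred in 44.6% of members against 64.5% of the genes tested, and CCAAT in 44.6% against 42.4%. The fold changes of members with and without an NRF1, ETS or YY1 motif had medians of 0.29 and 0.33, which differ little. The promoters of Ndufb11, which rose, Sdha, whose groups overlapped, and Atp5e, which had the highest log2 fold change in complex V, are given. They run 5' to 3' in the direction of transcription, and capitals mark NRF1, ETS and YY1 matches. They lie at chrX:20617570-20617869, chr13:74350191-74350490 and chr2:174464052-174464351, all on the minus strand.
Ndufb11 promoter: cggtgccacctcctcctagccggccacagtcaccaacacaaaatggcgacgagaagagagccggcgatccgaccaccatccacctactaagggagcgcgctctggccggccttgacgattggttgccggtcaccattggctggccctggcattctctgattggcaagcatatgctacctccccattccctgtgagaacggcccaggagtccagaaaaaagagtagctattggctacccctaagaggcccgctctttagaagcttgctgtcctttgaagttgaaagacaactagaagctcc
Sdha promoter: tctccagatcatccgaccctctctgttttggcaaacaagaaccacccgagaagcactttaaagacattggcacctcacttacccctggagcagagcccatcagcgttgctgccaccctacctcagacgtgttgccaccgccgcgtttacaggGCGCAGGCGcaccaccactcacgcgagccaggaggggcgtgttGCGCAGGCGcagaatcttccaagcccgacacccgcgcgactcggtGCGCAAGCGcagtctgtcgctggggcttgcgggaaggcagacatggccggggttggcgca
Atp5e promoter: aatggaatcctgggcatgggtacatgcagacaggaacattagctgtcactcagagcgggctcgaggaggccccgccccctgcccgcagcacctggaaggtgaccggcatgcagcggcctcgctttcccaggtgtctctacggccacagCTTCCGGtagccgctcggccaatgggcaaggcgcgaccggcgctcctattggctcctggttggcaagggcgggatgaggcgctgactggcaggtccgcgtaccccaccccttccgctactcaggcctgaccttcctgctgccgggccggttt
Sdha held 3 NRF1 matches and Atp5e 1 ETS match. In Ndufb11 the window held no NRF1, ETS or YY1 match. SP1 and CCAAT matches were not capitalised. Ndufb11 held 4 CCAAT matches, Atp5e 2 SP1 and 2 CCAAT matches, and Sdha 1 CCAAT match.

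Subunits encoded by mitochondrial DNA had values on both sides of 0. Of the 13, 11 were tested, with 5 positive and 6 negative log2 fold changes, a median of -0.06 and 0 calls. The positive values were those of mt-Nd6 (0.13) and of mt-Co2, mt-Co3, mt-Atp6 and mt-Atp8, whose levels were very low. With the principal transcript trend removed the median was -0.29. mt-Nd5, a proton-pumping subunit of complex I, had 865, 1001 and 819 CPM in KO marrow, against 1313, 1174 and 1164 CPM in WT marrow. All KO values were below all WT values (log2 fold change -0.44, edgeR adjusted p = 0.0711). mt-Co1, the catalytic subunit of complex IV, had a log2 fold change of -0.14 with overlapping groups. mt-Co2, mt-Co3, mt-Atp6, mt-Atp8, mt-Nd3 and mt-Nd4l had at most 2.11 CPM in each library. Near-identical nuclear copies of such genes exist, and no source used here states how reads matching several places were counted, so these 6 levels are uncertain.

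Other gene lists of the same pathways had medians closer to 0 than the members with TMM scaling. With the principal transcript trend removed the electron carriers had 0.14 and the mitochondrially encoded subunits -0.29, beside 0.11 for the members. Cycs, which encodes the mobile carrier cytochrome c, and Cyc1, the cytochrome of complex III, had log2 fold changes of 0.35 and 0.09, neither called. Of 21 complex IV assembly factors tested, 14 were positive and 9 had an unadjusted p below 0.05 with higher values in KO; 0 were called and the median was 0.18. The smallest p belonged to Cox14 (0.40, adjusted p = 0.0699), Coa4 (0.46, 0.071) and Pet100 (0.47, 0.0789), all small assembly proteins. Medians were 0.01 for 8 complex I assembly factors outside the prefixes, 0.18 for 4 of complex II, 0.15 for 6 of complex III, 0.03 for 5 genes of complex V assembly and regulation and 0.10 for 8 genes of supercomplex and inner membrane organisation, with 0 calls in each. The 14 citric acid cycle enzymes had 7 positive and 7 negative values and a median of 0.04. The 12 regulators of mitochondrial biogenesis had a median of -0.03. Among them Pprc1, a coactivator of the PGC-1 family, had 36.4, 45.6 and 41.7 CPM in KO marrow, against 65.1, 50.4 and 55.4 CPM in WT marrow. These did not overlap (log2 fold change -0.47, adjusted p = 0.0688). Among 11 other electron donors and oxidases, 1 gene rose: Sqor, which oxidizes hydrogen sulfide and passes the electrons to ubiquinone. It had 142, 139 and 152 CPM in KO marrow, against 91.3, 113 and 109 CPM in WT marrow (log2 fold change 0.47, edgeR adjusted p = 0.0474).

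Markers of marrow cell types moved between the groups as well, and in bulk RNA fewer cells of a type and less RNA per cell cannot be told apart. Late neutrophil markers, 5 of 5 positive with S100a8 and Camp called, summed to 61454, 55365 and 69286 CPM in KO marrow, against 37035, 47379 and 38313 CPM in WT marrow. Primary granule markers, 4 of 4 positive with Elane called, summed to 5400, 6335 and 6544 CPM in KO marrow, against 4526, 4380 and 4653 CPM in WT marrow. Both neutrophil lists were thus higher in every KO library. Erythroid markers, 5 of 5 negative with Sptb called lower, summed to 18585, 9762 and 12085 CPM in KO marrow, against 24693, 9833 and 17758 CPM in WT marrow, which overlapped. B cell markers, 4 of 4 negative and 0 called, summed to 145, 48.1 and 56.8 CPM in KO marrow, against 144, 107 and 173 CPM in WT marrow. Of 3 monocyte markers Ly6c2 was called higher, while Csf1r and Ccr2 each had a log2 fold change of -0.03 with overlapping groups. The extraction text of the labels names white adipose tissue although the source is given as bone marrow; of the white adipocyte markers Lep and Plin1 lay at or below 0.208 CPM, and with Adipoq and Fabp4 the list summed to 31.6, 23.1 and 39.1 CPM in KO marrow, against 22.6, 16.0 and 25.7 CPM in WT marrow. The part of cell composition in the fold changes of the respiratory chain members was not tested.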

How the data were processed

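The deposited table held whole-number counts of reads per gene for 6 libraries; the submitters' processing notes list featureCounts (Subread 1.5.2), STAR 2.5.2b, Trimmomatic 0.36 and the build GRCm38, while counting settings and annotation release were not given in the sources used here. Library totals lay between 33861440 and 40359093 counts, and TMM factors between 0.948 and 1.04. All pairs of libraries differed beyond sampling noise. Identifiers without a symbol, 259 in all, held 0.0171% of counts. Symbols, coordinates, lengths and 3' UTRs came from GENCODE M21 and miRNA and promoter sequences from RefSeq (GRCm38.p6).

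Counts were tested with edgeR 4.0.16 in R 4.3.3 (TMM, filterByExpr by group, robust quasi-likelihood, two-sided, Benjamini-Hochberg over all 16956 genes, threshold 0.05), KO against WT without covariates; the procedure was tested on simulated data. Alternatives included DESeq2 1.42.0, limma 3.58.1, other scalings and filters, and each library left out. Members, gene lists and tests were chosen with earlier results of these data known. Members named were those past the threshold, the 3 with the highest TPM and the 2 largest changes in each direction per complex, isoform groups, core subunits and, outside the members, up to 3 genes per list with the smallest p; other names were chosen after their values were seen. 11 processed pseudogenes with the same prefixes held between 1 and 34 counts each.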

Additional observations from a re-analysis of the deposited data

How the results depend on the processing

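The direction of the members' median held in all alternatives run, and the number of members called did not. The 2 members called higher became 0 with library totals only (background 0.513 percent) and 31 without a filter on counts (background 2.15 percent). DESeq2 called 28 (background 6.59 percent) and limma with sample quality weights 17 (background 2.92 percent). A covariate for Xist gave 0 (background 0.448 percent). Removing the trend on principal transcript length and GC content gave 1 (background 0.951 percent). Leaving out each library in turn gave 0 to 14. The number was 14 without KO replicate 3 (background 1.81 percent) and 1 without KO replicate 2 (background 1.16 percent). It was 0 otherwise (background 0.0346 to 0.327 percent). The replicate number as a block gave 8 (background 1.25 percent), and 8 with the length and GC trend also removed (background 1.6 percent). Whether the 2 shared numbers pair the samples is not known. Same-numbered deviations correlated at 0.21 and -0.139 and differently numbered ones at -0.212 to 0.155, too few values to decide it. Members called lower stayed at 0 throughout. The members' median ran between 0.21 (without KO replicate 4) and 0.37 (without KO replicate 3) over the libraries left out. With the principal transcript trend removed it was 0.11, and by complex 0.12 (I), 0.075 (II), 0.077 (III), 0.12 (IV) and 0.12 (V). Library totals alone moved the median of all genes to -0.08 and that of members to 0.22.

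The named members that changed sign were not called, and all had log2 fold changes between -0.08 and 0.18 except Cox4i2 (0.58 ± 0.61). Library totals gave Ndufaf1 -0.018, Cox6a2 -0.059 and Cox6b2 -0.055, and a mean log2 CPM of at least 1 gave Cox6a2 -0.0058 and Cox6b2 -0.00077. The replicate block gave Ndufs1 0.0037, Sdha 0.076 and Cox6b2 -0.11, and with the trend removed Ndufs1 0.094, Sdha 0.064, Cox6b2 -0.19 and Cox7a2l -0.00043. The summed exon trend removed gave Ndufs1 0.024, Ndufaf1 -0.039, Cox6a2 -0.0898 and Cox6b2 -0.085; limma gave Sdha 0.0024 and Cox6b2 -0.055; and the Xist covariate gave Cox4i2 -0.013 and Cox6a2 -0.065. The principal transcript trend removed gave Ndufaf1 -0.11, Cox6a2 -0.19, Cox6b2 -0.22, Cox7a2l -0.027, Atp5g2 -0.032, Ndufs3 -0.033 and Ndufv1 -0.032, and, outside the rule for named members, Uqcrc2 -0.056 (-0.0015 with the summed exon trend) and Atp5s -0.06. Over the libraries left out the values that crossed 0 ranged over -0.14 to 0.00091 for Ndufs1, -0.036 to 0.052 for Sdha, -0.0301 to 0.15 for Ndufaf1, -0.19 to 0.34 for Cox6a2 and -0.12 to 0.104 for Cox6b2. The cause was not tested for any of these. Depth limits Cox4i2 and Cox7a1, whose standard errors matched their fold changes.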
